A study of Mus musculus with 32 samples.

Results

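The liver genes described here were 10 genes of autophagy and mitophagy: Map1lc3a, Map1lc3b, Gabarapl1, Gabarapl2, Sqstm1, Ulk1, Tfeb, Bnip3, Bnip3l and Wipi1. They were chosen by name for their place in the pathway, with earlier results of these data known. They are 10 of the 20076 genes in the count table. All 10 passed the filter on low counts and were among the 11566 genes tested over the 8 groups.

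The mice were male C57BL/6J animals, either wild type (WT) or Acadm-knockout (KO). Acadm encodes medium-chain acyl-CoA dehydrogenase (MCAD), a mitochondrial enzyme of fatty-acid oxidation, and the knockout is carried in every cell of the body. Mice of both genotypes received a semisynthetic low-fat (LF) or high-fat (HF) diet for 6 weeks, and were then killed fed or after 16 h of fasting. This gave 8 groups of 4 mice: WT LF fed, KO LF fed, WT LF fasted, KO LF fasted, WT HF fed, KO HF fed, WT HF fasted and KO HF fasted. The labels give ages from 7.5 to 16 without a unit. RNA was extracted from whole frozen liver and sequenced from the 3′ end, with 2031053 to 4292200 counted reads per mouse.

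Autophagy encloses cytoplasm in a double membrane and delivers it to the lysosome for breakdown. ULK1 kinase starts the process, WIPI proteins bind the lipid mark on the growing membrane, and small ubiquitin-like proteins of the ATG8 family (the LC3 and GABARAP proteins) are joined to its lipids, where receptors such as p62, the product of Sqstm1, hold the cargo. In mitophagy the cargo is mitochondria, and BNIP3 and BNIP3L (NIX) are receptors in their outer membrane that bind ATG8 proteins directly. The liver is known for strong autophagy during fasting, which supplies amino acids and fatty acids, and the transcription factor TFEB drives lysosome and autophagy genes when nutrients are short.

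The stretch upstream of Bnip3 is shown because this gene had the largest fasted to fed ratio among the 10. It lies on the reverse strand of chromosome 7, at chr7:138909520-138909756 of GRCm38.p6 (RefSeq), is written 5′ to 3′ in the direction of transcription, and ends just before the annotated gene. The capitals mark a CACGTG, the E-box to which basic helix-loop-helix factors such as TFEB bind.
Bnip3 upstream region, 237 bases: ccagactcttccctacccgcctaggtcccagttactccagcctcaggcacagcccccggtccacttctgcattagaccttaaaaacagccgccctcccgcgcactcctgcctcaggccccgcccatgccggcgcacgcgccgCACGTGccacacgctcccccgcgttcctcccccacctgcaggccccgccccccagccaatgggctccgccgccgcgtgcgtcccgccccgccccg
The E-box began 108 bases before the RefSeq start. RefSeq windows of 300 bases, 250 before and 50 after the start, were found for 8 of the 10 genes (10 windows), and the other two, Map1lc3a and Bnip3l, are named only. Read on both strands, CACGTG was in 7.15% of all 32851 windows and in the window of 1 member, Bnip3. ACGTG, the core of the hypoxia response element, was in 19.6% of all windows and in those of Bnip3, where both matches overlapped the E-box, and Gabarapl2. The forkhead motif GTAAACA (3.65% of windows) and the cAMP response element TGACGTCA (1.79% of windows) were in no member's window. A match is only a run of letters and not a binding site.

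Some libraries needed care before any result. KO HF fasted replicate 4 had heart markers (12 genes such as Myh6 and Tnnt2) summing to 37541 CPM (read counts scaled to library size), against at most 60.6 in the 30 mice used, and hepatocyte markers at 1118 CPM against at least 59074. WT LF fed replicate 2 stood apart with hepatocyte markers at 50241 CPM and stellate and endothelial markers at 1401 CPM, against at most 926 in the 30. Both were left out, so that 2 groups held 3 mice and 6 groups held 4. In 6 of the 30 mice, markers of acinar pancreas, skeletal muscle or adrenal cortex summed to over 50 CPM, at most 17518.5 for pancreas in WT HF fasted replicate 2. Acadm was read at 26 to 94 counts in the 16 KO mice and at 566 to 2752 in the 16 WT mice, so no label of genotype was contradicted.

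Levels below are CPM with library sizes scaled by TMM, and differences are log2 fold changes from the quasi-likelihood test of edgeR, with p-values adjusted by Benjamini-Hochberg over all genes tested. A gene was called at an adjusted p under 0.05. In whole liver, fewer cells of a type and less RNA per cell cannot be told apart. The 3′ counts were read within each gene, and levels were not compared between genes.

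Fasting was the condition that moved these genes most. Over the 4 genotype and diet groups, 6 of the 10 rose in fasted mice and 0 fell: Bnip3, Map1lc3a, Map1lc3b, Sqstm1, Wipi1 and Bnip3l. Among all genes tested, 18.9% were called in this contrast (9.77% higher and 9.14% lower). The median difference of the 10 was 0.30 on the log2 scale, beside -0.0022 over all genes. The 10 were chosen with earlier results known, so these figures describe them and are no test of the pathway. Gabarapl1, Gabarapl2, Ulk1 and Tfeb were not called.

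Bnip3 rose most, and in every comparison of feeding state its fasted and fed mice did not overlap. It lies at chr7:138890836-138909519 on the reverse strand. Fed mice on LF read 84.4, 75.4 and 89.98 CPM in WT and 86.2, 95.3, 74.2 and 106 CPM in KO. After fasting the LF mice read 324, 393, 286 and 279.7 CPM in WT and 300.1, 406, 248 and 375 CPM in KO. Thus the lowest fasted LF mouse was above the highest fed LF mouse.

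On HF the fed and fasted levels lay closer together. Fed WT mice read 94.1, 119.7, 122 and 135 CPM, and fed KO mice 138, 119, 109 and 110.3 CPM. Fasted WT mice read 255, 158, 192 and 211 CPM, and the 3 fasted KO mice 147, 202 and 234 CPM. Here too every fasted mouse was above every fed mouse. Over all 30 mice the lowest fasted mouse (147 CPM) was above the highest fed mouse (138 CPM), a separation that 0.19% of the genes tested showed (22 genes).

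**Figure D1:**
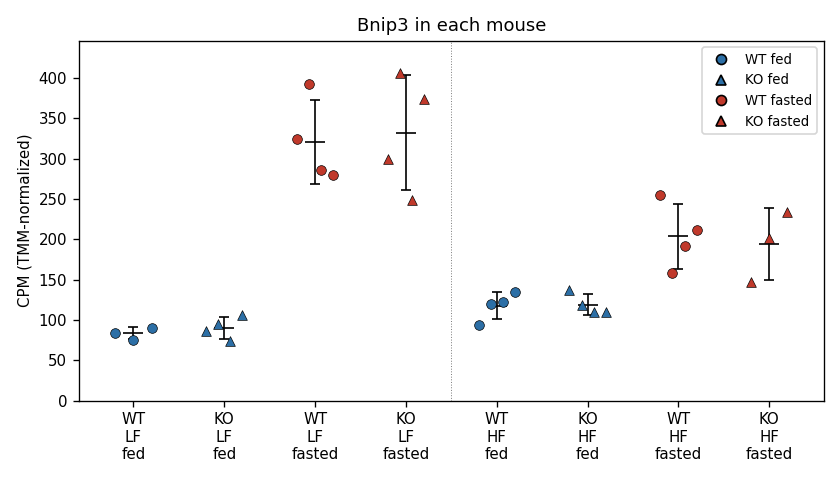
Bnip3 in each of the 30 mice, in TMM-normalized CPM (vertical axis, from 0), by group (horizontal axis). Points are mice (circles WT, triangles KO, blue fed, red fasted), and bars the mean and SD of 3 or 4 mice. Fasted LF mice sit between 248 and 406 CPM, fasted HF mice between 147 and 255 CPM, and all fed mice at or below 138 CPM.

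The fitted Bnip3 difference over all groups was 1.33 ± 0.09 (SE), a 2.52-fold higher level in 15 fasted than in 15 fed mice (edgeR adjusted p = 1.1e-13). Within LF it was 1.94 ± 0.20 in WT (adjusted p = 1.7e-08) and 1.88 ± 0.18 in KO (adjusted p = 1.5e-09), or 3.85-fold and 3.68-fold. Within HF it was 0.79 ± 0.18 in WT (1.73-fold, adjusted p = 0.021) and 0.71 ± 0.19 in KO, which was not called (adjusted p = 0.074). The WT HF call was lost with an adjusted p of up to 0.131 when WT HF fed replicate 1 or 3 or WT HF fasted replicate 1, 3 or 4 was left out, while the difference kept a value of at least 0.67. In KO HF, the DESeq2 test gave an adjusted p of 0.031, and the edgeR test also called the gene (a count of 1 in place of 0) without KO HF fasted replicate 1 or without KO LF fasted replicate 1.

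The difference in the fasting response between diets was itself tested. The Bnip3 response was smaller on HF than on LF by 1.16 ± 0.18 on the log2 scale (edgeR adjusted p = 0.00017), a 2.24-fold smaller ratio. Of all genes tested, 2.46% were called in this contrast (1.2% with a smaller response on HF), and Bnip3 was the only member called. Among fasted mice, those on HF had less Bnip3 than those on LF, by 0.78 ± 0.19 in KO (adjusted p = 0.024) and by 0.65 ± 0.17 in WT (adjusted p = 0.0498). Among fed mice the HF to LF difference pointed the other way, 0.40 ± 0.18 in KO and 0.50 ± 0.19 in WT, and was not called (adjusted p = 0.62 and 0.76).

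The Bnip3 call between diets in fasted mice was less firm than the difference in response, which kept its call whichever of the 30 mice was omitted (-1.24 to -1.08). In fasted KO mice it was lost without KO HF fasted replicate 1 or 2 or KO LF fasted replicate 2 or 4 (adjusted p up to 0.203). In fasted WT mice it was lost on leaving out any of 20 of the 30 mice (adjusted p up to 0.231). The 10 mice whose omission left that call in place were KO HF fasted replicates 1 and 3, the 4 KO LF fasted mice, WT LF fasted replicates 3 and 4, WT HF fasted replicate 1 and WT HF fed replicate 1.

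Bnip3l, the sister receptor of Bnip3, showed a far smaller difference. The gene lies at chr14:66985239-67008877 on the reverse strand. It read 34.2 to 75.0 CPM in fed mice (median 51.0) and 41.5 to 95.3 CPM in fasted mice (median 65.5). These ranges overlapped widely, and the fitted difference was 0.29 ± 0.09 (1.22-fold, edgeR adjusted p = 0.018). Fasted mice separated from fed mice on LF only.

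In KO LF, Bnip3l read 50.9, 61.1, 46.7 and 57.3 CPM fed and 95.3, 71.6, 81.8 and 83.3 CPM fasted, a rise of 0.62 ± 0.17 (edgeR adjusted p = 0.012). In WT LF the fed mice read 51.9, 45.6 and 46.4 CPM and the fasted mice 61.5, 70.6, 66.0 and 69.1 CPM. Those groups did not overlap, but the difference of 0.48 ± 0.19 was not called (edgeR adjusted p = 0.131). On HF the values were 0.20 ± 0.17 in WT and -0.13 ± 0.19 in KO, neither called. In fasted KO mice Bnip3l was lower on HF (53.1, 41.5 and 50.9 CPM) than on LF by 0.77 ± 0.19 (edgeR adjusted p = 0.025), a call lost without any of the 3 KO HF fasted mice and without KO LF fasted replicate 1 or 4 (adjusted p up to 0.141).

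Both LC3 genes rose in fasted mice. Map1lc3b encodes LC3B, the ATG8 protein most used to count autophagosomes, and lies at chr8:121590361-121598760 on the forward strand. Fed LF mice read 136, 138 and 138 CPM in WT and 155, 163, 160.4 and 173 CPM in KO. Fasted LF mice read 291, 319.7, 231 and 209 CPM in WT and 406, 247, 234 and 272 CPM in KO. On LF no fasted mouse came down to a fed mouse.

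On HF the Map1lc3b ranges overlapped. Fed mice read 175, 193, 154 and 175 CPM in WT and 186, 125, 168 and 149 CPM in KO, and fasted mice 229, 172, 246 and 228 CPM in WT and 175, 237 and 238 CPM in KO. The fitted difference over all groups was 0.64 ± 0.09 (1.56-fold, edgeR adjusted p = 5.6e-07). It was 0.93 ± 0.19 in WT LF (adjusted p = 0.00069) and 0.83 ± 0.17 in KO LF (adjusted p = 0.00055). On HF it was 0.33 ± 0.17 in WT and 0.46 ± 0.18 in KO, not called (adjusted p = 0.57 and 0.42). The response on HF was lower than on LF by 0.49 ± 0.18, which did not pass (adjusted p = 0.154).

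Map1lc3a encodes LC3A and lies at chr2:155276297-155278073 on the forward strand. It read 52.6 to 107 CPM in fed mice (median 84.5) and 67.7 to 216 CPM in fasted mice (median 145). Fasted mice scattered far more than fed mice: WT HF fasted mice read 68.5, 108, 187 and 202 CPM, and KO LF fasted mice 190.2, 79.8, 145 and 216 CPM. In WT HF the values 68.5 and 108 came from sequencing lane 7, and 187 and 202 from lane 8. In KO LF the value 216 came from lane 8 and the others from lane 7. The difference over all groups was 0.68 ± 0.15 (1.60-fold, edgeR adjusted p = 0.0009). In WT LF, where fasted mice (129.6, 175, 152 and 194 CPM) were all above fed mice (87.5, 85.2 and 76.8 CPM), it was 0.97 ± 0.31 (adjusted p = 0.049).

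That WT LF call for Map1lc3a was lost on leaving out any of 19 mice (adjusted p up to 0.174). The 11 whose omission left it in place were the 4 WT HF fasted mice, KO LF fasted replicates 2 and 4, KO HF fed replicates 3 and 4, KO HF fasted replicate 3, WT HF fed replicate 3 and WT LF fasted replicate 1. The difference was 0.79 ± 0.28 in KO LF (edgeR adjusted p = 0.057, DESeq2 adjusted p = 0.031), 0.71 ± 0.28 in WT HF and 0.24 ± 0.30 in KO HF.

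The GABARAP genes did not pass for fasting. Gabarapl1, at chr6:129533160-129542346 on the forward strand, read 224 to 481 CPM in fed mice (median 335) and 224 to 573 CPM in fasted mice (median 367). The difference was 0.24 ± 0.11 (edgeR adjusted p = 0.117), positive in all 4 groups and between 0.18 and 0.33. Gabarapl2, at chr8:111940703-111953612 on the forward strand, read 11.2 to 31.6 CPM fed and 10.6 to 25.8 CPM fasted, with a difference of 0.07 ± 0.12 (edgeR adjusted p = 0.76). In KO HF the fasted mice (21.3, 22.1 and 19.5 CPM) were above the fed mice (15.0, 11.2, 18.6 and 17.9 CPM), a difference of 0.41 ± 0.26 that was not called.

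**Figure D2:**
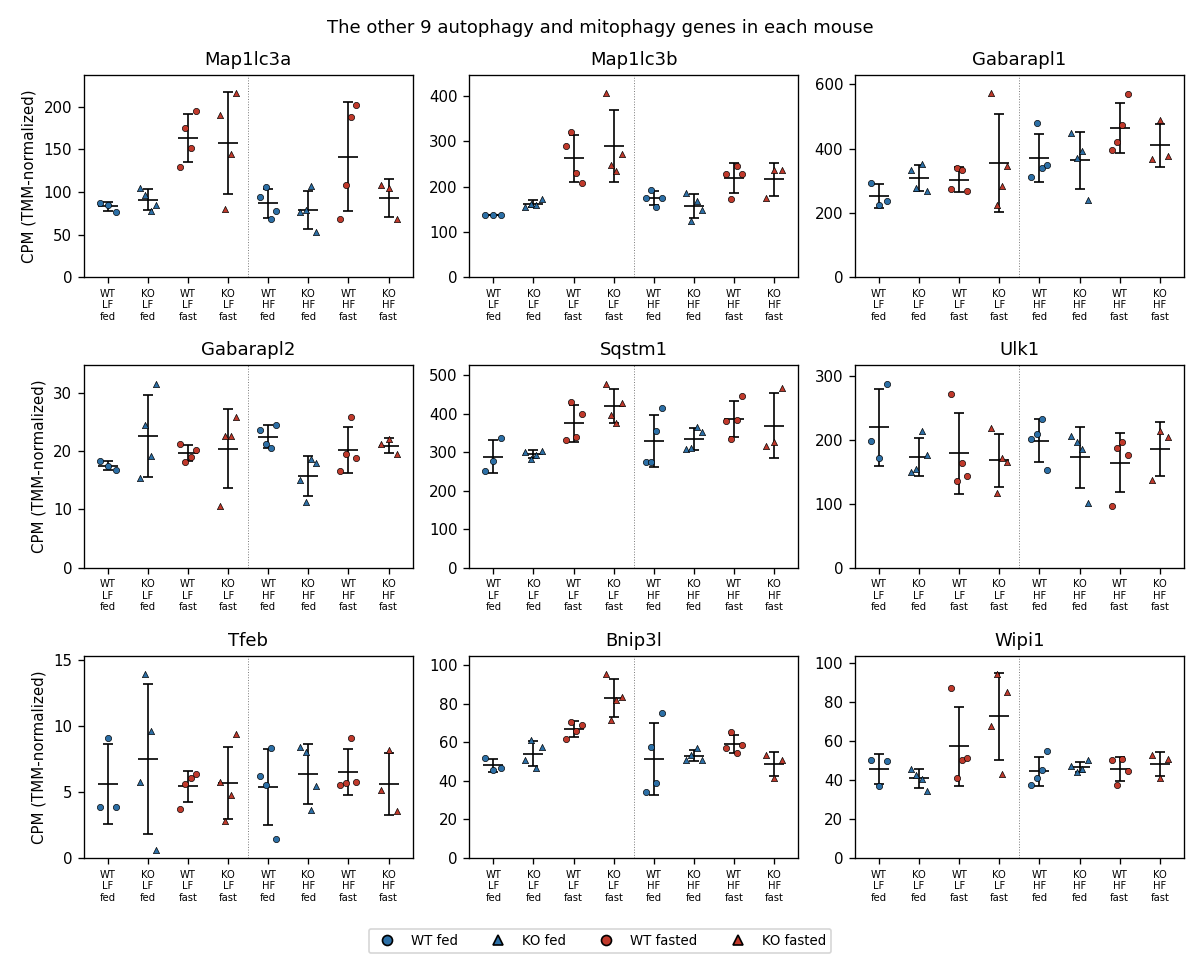
The other 9 genes in each of the 30 mice, a panel per gene, in TMM-normalized CPM (vertical axes, from 0) by group (horizontal axes; fast, fasted). Points are mice and bars the mean and SD, with colours and shapes by genotype and feeding state. Map1lc3b and Sqstm1 separate fasted from fed mice in KO LF, while Ulk1, Tfeb and Gabarapl1 overlap between feeding states in all 4 genotype and diet groups.

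Sqstm1 encodes p62, which binds ubiquitin-tagged cargo and is itself broken down by autophagy. It lies at chr11:50199366-50210827 on the reverse strand. Fed mice read 252 to 413 CPM (median 304) and fasted mice 315 to 478 CPM (median 382), and the difference was 0.32 ± 0.08 (1.24-fold, edgeR adjusted p = 0.0037). With all 32 mice the difference was 0.26 and not called (edgeR adjusted p = 0.172). In KO LF the fed mice (300.5, 281, 292 and 304 CPM) lay below all fasted mice (478, 396, 376 and 426 CPM), a rise of 0.51 ± 0.16 (adjusted p = 0.022). That call was lost without KO LF fasted replicate 1 or KO LF fed replicate 2 (adjusted p up to 0.059). The differences in the other 3 groups, 0.38, 0.23 and 0.14 in WT LF, WT HF and KO HF, were not called.

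Ulk1 and Wipi1 act at the start of the process. Ulk1, at chr5:110784488-110810097 on the reverse strand, read 101 to 287 CPM in fed mice (median 197) and 96.1 to 272 CPM in fasted mice (median 171). Its difference was -0.13 ± 0.13 (edgeR adjusted p = 0.56). Wipi1, at chr11:109573331-109611967 on the reverse strand, read 34.4 to 54.8 CPM fed (median 45.3) and 37.2 to 94.5 CPM fasted (median 50.7). It rose by 0.31 ± 0.11 on the log2 scale (1.24-fold, edgeR adjusted p = 0.034).

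The 4 fasted mice with Wipi1 above the range of all fed mice were on LF. KO LF fasted mice read 67.9, 94.5, 43.3 and 85.2 CPM, against 45.8, 42.6, 40.5 and 34.4 CPM in KO LF fed mice, a rise of 0.84 ± 0.21 (edgeR adjusted p = 0.0038). WT LF fasted replicate 1 read 87.2 CPM, and the other WT LF fasted mice 40.9, 50.5 and 51.1 CPM. In WT HF and KO HF the differences were 0.04 ± 0.21 and 0.05 ± 0.22. The call over all groups was lost on leaving out any of 11 mice (adjusted p up to 0.085): KO HF fasted replicate 1 or 3, KO LF fasted replicate 2 or 4, KO LF fed replicate 4, WT HF fasted replicate 1 or 3, WT HF fed replicate 1 or 2, WT LF fasted replicate 1 and WT LF fed replicate 3. It was also lost with limma voom (adjusted p = 0.051) and with age as a covariate in edgeR (adjusted p = 0.055). The test of the diets' difference gave -0.54 ± 0.21 (edgeR adjusted p = 0.218).

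Tfeb, at chr17:47737030-47792419 on the forward strand, was at the limit of what this depth can measure, with 2 to 39 counts per mouse. It read 0.626 to 13.9 CPM fed (median 5.77) and 2.83 to 9.38 CPM fasted (median 5.64), and the difference was -0.08 ± 0.27 (edgeR adjusted p = 0.89). A difference of this size in Tfeb RNA was not detectable at this depth.

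By genotype and diet, fasting called 3 of the 10 in WT LF (Bnip3, Map1lc3b and Map1lc3a), 5 in KO LF (Bnip3, Map1lc3b, Wipi1, Bnip3l and Sqstm1), 1 in WT HF (Bnip3) and 0 in KO HF, all higher in fasted mice. Of all genes tested, 3.75%, 7.26%, 0.268% and 0.294% were called higher in these contrasts. In KO HF, 2 members had an unadjusted p under 0.05 in edgeR, beside 871 of all 11566 genes, and DESeq2 called 1. Fasted mice lay above fed mice without overlap for 4 members in WT LF, 4 in KO LF, 1 in WT HF and 2 in KO HF, beside 9.96%, 6.73%, 3.23% and 5.35% of all genes. The fitted difference was positive in all 4 groups for 6 members (Map1lc3a, Map1lc3b, Gabarapl1, Sqstm1, Bnip3 and Wipi1), beside 16.3% of all genes. Apart from Bnip3, no member's fasting response was shown to differ between diets.

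**Figure D3:**
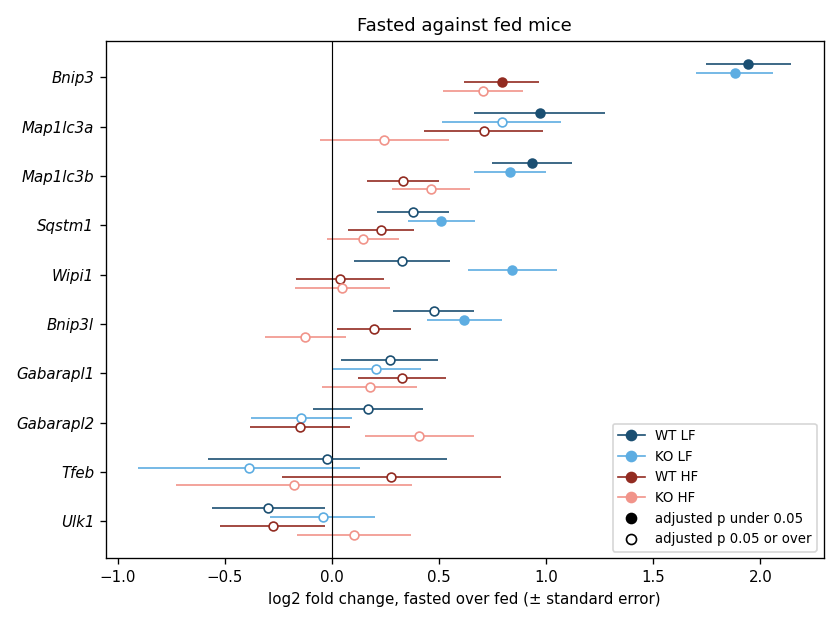
Fitted log2 fold change, fasted over fed (horizontal axis), of each gene (vertical axis) in the 4 genotype and diet groups, with SE bars. Filled points had an edgeR adjusted p under 0.05. Bnip3 is at 1.94 and 1.88 on LF and at 0.79 and 0.71 on HF.

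The libraries were recorded as sequenced on lanes 7 and 8 (16 mice each), and all WT LF fed mice were on lane 8. The study's methods instead give 8 samples per lane, a difference left unresolved here. Fits of a lane alone had genotype, diet and feeding state as separate terms in place of the 8 groups. Lane and model therefore changed together, and these values are not the main estimate repeated by lane. Fitted within lane 7 and lane 8, the fasting difference was 1.097 and 1.44 for Bnip3, 0.51 and 0.63 for Map1lc3b, 0.31 and 1.04 for Map1lc3a, 0.27 and 0.32 for Sqstm1, 0.31 and 0.24 for Bnip3l and 0.28 and 0.30 for Wipi1. All 6 kept their direction in both lanes. On lane 7 alone Bnip3 was called (edgeR adjusted p = 0.0044), and on lane 8 alone Bnip3, Map1lc3b, Map1lc3a and Sqstm1. Each lane held fewer mice, and the share of all genes called within it is not given here. Tfeb had -0.57 on lane 7 and 0.60 on lane 8, and Ulk1 -0.16 and -0.06. With lane as a term all 6 calls stood.

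Macrophage markers (11 genes such as Clec4f and C1qa) summed to 462 to 655 CPM in fed mice (median 559) and 323 to 851 CPM in fasted mice (median 422). Hepatocyte markers summed to 59074 to 78719 CPM in fed and 62235 to 91329 CPM in fasted mice. The part of these shifts in the results was not tested. Without the 6 mice carrying markers of other tissues, the fasting difference was 1.42 for Bnip3, 0.73 for Map1lc3b, 0.57 for Map1lc3a, 0.41 for Wipi1, 0.34 for Sqstm1 and 0.32 for Bnip3l, and all 6 were called.

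Diet, averaged over genotype and feeding state, called 1 of the 10, beside 3.49% of all genes (2.26% higher on HF). Gabarapl1 was higher on HF (240.4 to 571 CPM, median 393) than on LF (224 to 573 CPM, median 283), by 0.40 ± 0.11 (1.32-fold, edgeR adjusted p = 0.026). In WT mice the HF and LF ranges did not overlap: 313, 481, 340.2 and 349.9 CPM against 294, 224 and 238 CPM fed, and 396, 420.2, 474 and 571 CPM against 274, 340.2, 333 and 267 CPM fasted. Within WT the differences were 0.56 ± 0.23 fed and 0.62 ± 0.21 fasted, and within KO 0.24 ± 0.21 and 0.20 ± 0.22, none called.

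The Gabarapl1 diet call was not stable. Its difference was 0.36 within lane 7 and 0.40 within lane 8, and 0.32 without the 6 mice with markers of other tissues, with no call in any of these (edgeR adjusted p = 0.49, 0.205 and 0.26). It was also lost without KO HF fasted replicate 2, WT LF fed replicate 3 or WT LF fed replicate 4 (adjusted p up to 0.062). Within feeding state and genotype, diet called 0 members in fed mice of either genotype (2 members in each with an unadjusted p under 0.05), 1 in WT fasted (Bnip3) and 2 in KO fasted mice (Bnip3 and Bnip3l), beside 0.0778%, 0.00865%, 1.12% and 1.68% of all genes in WT fed, KO fed, WT fasted and KO fasted mice (0.45% and 0.605% lower on HF in the last pair). An unadjusted p under 0.05 was found for 604 of all 11566 genes in WT fed and for 840 in KO fed mice. In WT fed mice 4 members (Map1lc3b, Gabarapl1, Gabarapl2 and Bnip3) lay above the LF range without overlap on HF, beside 4.34% of all genes. In KO fed mice 2 did (Sqstm1 and Bnip3), beside 2.95%. In WT fasted mice Gabarapl1 lay above and Bnip3 below, beside 3.79% and 3.44% of all genes, and in KO fasted mice Bnip3 and Bnip3l lay below, beside 4.19%.

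Genotype called 0 of the 10 in every comparison. The KO to WT difference averaged over conditions lay between -0.17 (Map1lc3a) and 0.11 (Tfeb), with standard errors of 0.08 to 0.27. In edgeR 0 members had an unadjusted p under 0.05, beside 335 of all 11566 genes (0.00865% of all genes were called). Fitted within each condition, as the mice of a single diet and feeding state, the counts with an unadjusted p under 0.05 were 1 in LF fed (Gabarapl1, 0.30 ± 0.13), 0 in LF fasted, 1 in HF fed (Gabarapl2, -0.50 ± 0.23) and 0 in HF fasted mice. Among all genes tested, 582 of 10366, 220 of 9639, 393 of 10024 and 384 of 10413 had such a p, in the same order. Of all genes tested 0.0193%, 0.0104%, 0.00998% and 0.0096% were called in these 4 conditions, and DESeq2 and limma voom also called 0 members. A p that misses the threshold does not show that the genotypes were alike, and for Map1lc3a in HF fasted mice the difference was -0.60 ± 0.38.

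In 4 cases a member's range separated the genotypes in a condition. Map1lc3b in LF fed mice was higher in KO (155 to 173 CPM) than in WT (136 to 138 CPM), with a difference of 0.25 ± 0.12. Bnip3l was higher in KO than in WT in LF fasted mice (71.6 to 95.3 against 61.5 to 70.6 CPM) and lower in KO in HF fasted mice (41.5 to 53.1 against 54.5 to 65.5 CPM). Gabarapl2 was lower in KO in HF fed mice (11.2 to 18.6 against 20.6 to 24.5 CPM). None was called, and such a separation was seen in 3.1%, 1.08%, 2.6% and 1.39% of all genes in the same order. The fasting response was not shown to differ between genotypes for any member: 0 were called and 0 had an unadjusted p under 0.05. Of all 11566 genes tested, 573 had such a p and 0.0% were called.

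**Figure D4:**
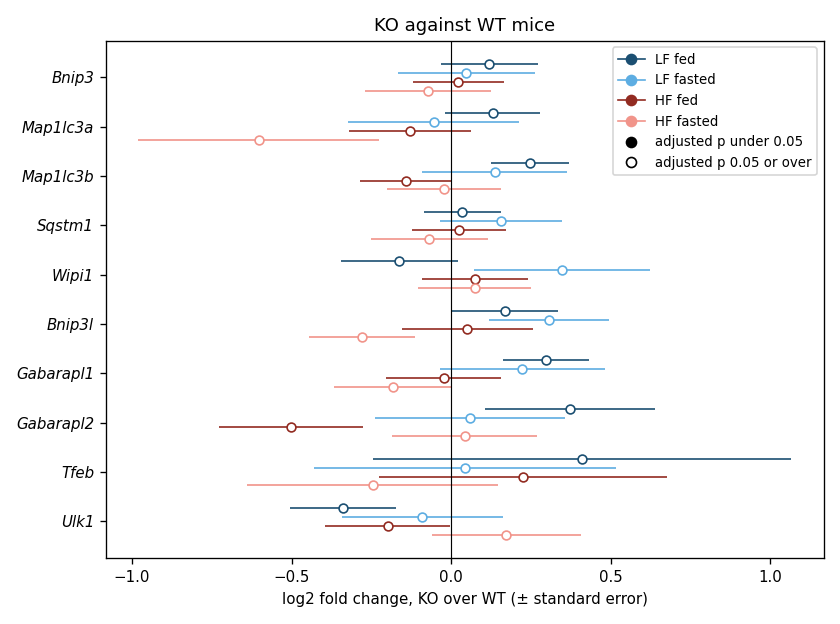
Fitted log2 fold change, KO over WT (horizontal axis), of each gene (vertical axis) in the 4 conditions, each fitted on the 7 or 8 mice of that condition, with SE bars. All points are open because no gene had an edgeR adjusted p under 0.05, and Bnip3 stays between -0.07 and 0.12.

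Among mice of the same group, no pair of the 10 genes was shown to vary together. After the group means were removed, 45 pairs were compared over 30 mice by a permutation test, and 0 passed after Benjamini-Hochberg adjustment. The largest was Map1lc3a with Gabarapl1, with Pearson's r = 0.61 and Spearman's rho = 0.50 (permutation p = 0.0071 and 0.019, adjusted 0.29 and 0.37), and r was 0.52 without the 2 mice farthest from the median of Map1lc3a. Gabarapl1 also had r = 0.57 with Map1lc3b, -0.52 with Gabarapl2 and 0.50 with Ulk1 (unadjusted permutation p = 0.019, 0.061 and 0.015). Bnip3 and Bnip3l, the receptor pair, were not among the 6 largest.

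Over all 11566 genes tested, those whose deviations followed a member's most closely were, as a description with no test, Smim27 (r = 0.77), Usp18 and Lrp11 (both 0.76) for Bnip3, R3hdm4 (0.88) and Taok2 (0.87) for Map1lc3a, Ypel3 (0.75), Phax (0.73) and Abcf1 (0.70) for Map1lc3b, and Ubr4 (0.83), Dcaf6 and Cops7b (both 0.81) for Gabarapl1. For Sqstm1 they were Ddt (0.74), Mrtfb (0.72) and Cox19 (0.70), for Ulk1 Rcl1 (0.80), Midn (0.79) and Tbl1xr1 (0.78), and for Bnip3l Ddx49 (0.77), Gm14303 and Rhod (both 0.66). For Wipi1 they were Alg13 (0.73), Zfp800 (0.72) and Sf3b5 (0.71), for Gabarapl2 Abat (0.79), Usp25 and Dock1 (both 0.77), and for Tfeb Dock2 (0.86), Hand2os1 (0.76) and Epcam (0.74). These points share library and depth, which matters most for Tfeb.

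Other genes of the pathway were read from 9 lists holding 129 genes, of which 124 were tested. These lists too were chosen with earlier results of these data known. Fasting called 23 of them higher and 9 lower, 25.8% in all, beside 18.9% of all genes. Their median difference was 0.07 on the log2 scale. By group, 15 rose and 7 fell in KO LF and 6 rose and 2 fell in WT LF, where 13.8% and 7.54% of all genes were called, and 0 were called in WT HF or KO HF. Within lane 7 alone 2 were called, and within lane 8 alone 23. Those fits held fewer mice, and the share of all genes called in them is not given here.

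By list, fasting called 66.7% of the WIPI family (3 genes), 40% of transcription regulators, 33.3% of cargo receptors, 28.6% of mTORC1 and AMPK control and 25% of ATG8 conjugation. Fusion and clearance (22.2%) and lysosome genes (20%) were near the 18.9% of all genes. Other mitophagy genes (14.3%) and initiation and nucleation (13.3%) were under it. Among 12 other cargo receptors 4 rose and 0 fell. Optn, encoding the ubiquitin-binding receptor optineurin, read 30.7 to 58.7 CPM in fed mice (median 37.9) and 45.9 to 116 CPM in fasted mice (median 72.6), and rose by 0.86 ± 0.10 (1.82-fold, edgeR adjusted p = 2.9e-08). Stbd1, a receptor for glycogen, rose by 0.71 and Tax1bp1, another ubiquitin-binding receptor, by 0.37, as did Ccpg1, a receptor in the endoplasmic reticulum. Of 14 other mitophagy genes 2 rose, Phb2 (0.34) and the ubiquitin ligase Mul1 (0.40), and 0 fell, a share no larger than that of all genes. Of the 3 WIPI genes besides Wipi1, Wipi2 (0.30) and Wdr45 (0.43) rose.

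Of 12 genes in the list of ATG8 conjugation, which also holds the ATG8 gene Gabarap, Atg16l1 (0.48), Atg5 (0.29) and the protease gene Atg4d (0.49) rose and 0 fell. Initiation and nucleation split, with the lipid transfer gene Atg2a higher (0.49), Ulk2, the close relative of Ulk1, lower (-0.43), and 13 of 15 not called. Among 25 lysosome genes Npc1 (0.50), Ctsz (0.33) and Psap (0.46) rose and Ctsb, encoding cathepsin B, was lower (-0.23). Of 9 genes in the list of fusion and clearance, the fusion protein gene Vamp8 rose (0.36) and Tmem41b was lower (-0.54). A place in a list does not fix the step at which a gene acts.

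Genes of nutrient control went both ways. Of 21 genes of mTORC1 and AMPK control, Mtor, encoding the kinase that restrains autophagy when nutrients are plentiful, was higher (0.73 ± 0.13, edgeR adjusted p = 2.5e-05; median 22.0 CPM fed and 35.8 CPM fasted), as was Trib3 (0.74). Fnip2 (-0.78), Tsc1 (-0.41), Sesn3 (-0.79) and Rragd (-0.90) were lower. Of 15 transcription regulators, Ppara, the fatty-acid receptor that drives the fasting response of the liver, was higher (0.63 ± 0.13, edgeR adjusted p = 0.00073), with Nr1h4 (0.43), Foxo1 (0.31) and Cebpb (0.75). Xbp1 (-0.59) and Foxo4 (-0.54) were lower. Ccpg1, Psap, Cebpb and Rragd stand outside the naming rule of 3 genes per direction and were named after their values were seen.

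**Figure D5:**
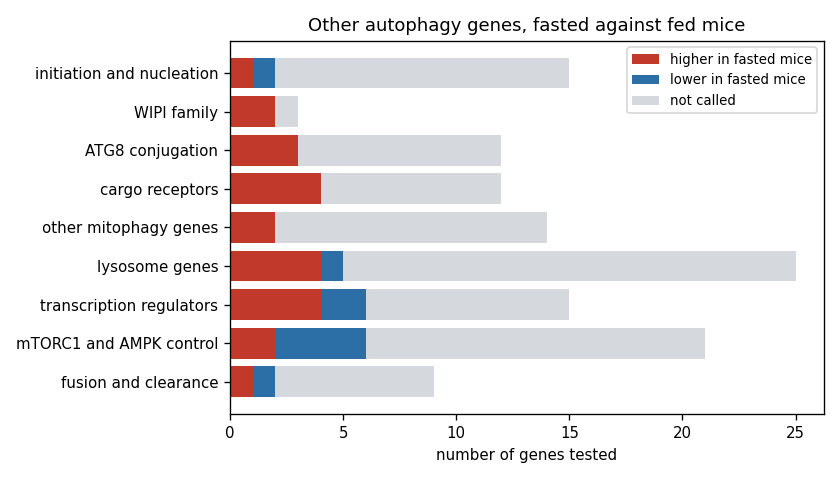
Number of genes tested in each of the 9 other lists (horizontal axis; lists on the vertical axis) called higher in fasted mice (red), lower (blue) or not called (grey) at an edgeR adjusted p under 0.05. Cargo receptors show 4 of 12 higher and 0 lower, and mTORC1 and AMPK control 2 of 21 higher and 4 lower.

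Diet called 6 of the 124 (4.84%, beside 3.49% of all genes), 2 higher and 4 lower on HF. Atg16l2, a relative of Atg16l1, was lower by 1.49 ± 0.16 on the log2 scale (2.82-fold, edgeR adjusted p = 6e-07). It read 5.78 to 27.3 CPM in the 15 HF mice and 31.1 to 77.5 CPM in the 15 LF mice, with no overlap. The share of all genes that separated the diets in this way is not given here. Atg16l2 was also called within WT fed, WT fasted and KO fasted mice. Mul1 was lower (-0.49), and, outside the naming rule, Ddit4 (-1.33) and Phb2 (-0.28) were lower and Ulk2 higher (0.28). Genotype called 0 of them in every comparison, as did the tests of the fasting response between diets and between genotypes.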

How the data were processed

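Liver RNA of 32 mice was sequenced from the 3′ end (QuantSeq). Per the labels and the study's methods, the authors mapped reads to GRCm38 with HISAT 0.1.5, sorted them with SAMtools 1.2 and counted reads per gene with HTSeq 0.6.1p1 in union mode, and they deposited whole-number counts per Ensembl gene with no normalization. Whether counting used strand is not given in the sources used here, so how reads were assigned where members overlap other genes is not known. On the opposite strand Sqstm1 overlaps Mrnip, Map1lc3b overlaps Zcchc14, Gabarapl1 overlaps 1700101I11Rik and Bnip3 overlaps Gm45507 and Gm18258. On the same strand Map1lc3b overlaps Gm20388 and Gabarapl1 overlaps Gm44243. Symbols and positions came from the GENCODE annotation of GRCm38 (19918 of 20076 genes matched), and promoters from RefSeq.

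Counts were fitted with edgeR 4.0.16 in R 4.3.3 (TMM, filterByExpr by group, robust quasi-likelihood F test, Benjamini-Hochberg over all genes tested, threshold 0.05) in a model of 8 groups over 30 mice. KO against WT was also fitted on the mice of each diet and feeding state alone. The standard error is the log2 fold change divided by the square root of F. Figures show means with SD, and correlations used log2 CPM with a prior count of 2 and 100000 permutations within groups. The fit was tested on simulated data. Alternatives were all 32 mice, RLE size factors, DESeq2 1.42.0, limma 3.58.1 voom, no low-count filter, lane, replicate number or age in the model, each lane alone and each mouse left out. The fits of a lane alone had genotype, diet and feeding state as separate terms in place of the 8 groups, and filtered low counts by feeding state. A fit without the 6 mice with markers of other tissues was added after the data were seen.

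Libraries of a group differed by more than sampling noise (smallest chi-square per gene 3.93 over 48 pairs). The members and lists were chosen with earlier results of these data known. The naming rule took all members, up to 3 genes per list and direction with the smallest p for fasting, up to 3 per comparison for diet and genotype, Acadm, and the 3 genes most correlated with each member. Some genes that this rule names are not reported here. Depth, 2899001 counts at the median, limits Tfeb most.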

Additional observations from a re-analysis of the deposited data

Results flagged for a closer look

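Of 60 gene and group combinations with 4 mice, 4 held a mouse far from the other 3 by Dixon's test, about what chance gives at 1 in 20. Gabarapl2 in KO LF fasted replicate 1 was at 10.6 CPM, against 22.7 to 25.8 CPM in the others. Ulk1 was at 101 CPM in KO HF fed replicate 4 (185 to 205 CPM in the others) and at 96.1 CPM in WT HF fasted replicate 1 (176 to 196 CPM). Tfeb was at 9.08 CPM in WT HF fasted replicate 3, against 5.51 to 5.78 CPM in the others.

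The Bnip3 fasting response differed between diets by the test of the difference itself, at -1.16 on the log2 scale (HF minus LF, edgeR adjusted p = 0.00017).

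In the left-out KO HF fasted replicate 4, scaled with all 32 mice, 4 members were above the highest of the 30 mice: Map1lc3a at 620.2 CPM (highest 218), Sqstm1 at 522 CPM (482), Tfeb at 14.5 CPM (14.0) and Wipi1 at 232 CPM (95.3). In this library heart markers summed to 37541 CPM. The left-out WT LF fed replicate 2 had Sqstm1 at 618 CPM, against 482 CPM at most in the 30 mice.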

How the results depend on the processing

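The Bnip3 fasting difference over all groups kept its call and direction under all 41 alternatives (1.097 to 1.44), as did its difference in response between diets under 39 (-1.24 to -1.07, adjusted p at most 0.0091). Of the 6 members called for fasting, 1 was called on lane 7 alone, which held no WT LF fed mouse, and 5 to 6 with a mouse left out. Single calls among the 6 also ended elsewhere: Sqstm1 with all 32 mice (adjusted p = 0.172), Wipi1 with limma voom and with age as a covariate (0.051 and 0.055), and Wipi1 and Bnip3l on lane 8 alone. The call of 1 member for diet became 0 with all 32 mice, on lane 7 alone, on lane 8 alone and without the 6 mice with markers of other tissues, and was 0 to 1 with a mouse left out. Within groups, the fasting counts changed with all 32 mice, from 1 to 0 in WT HF and from 5 to 3 in KO LF, and with DESeq2 from 0 to 1 in KO HF and from 5 to 6 in KO LF, where Map1lc3a was added. In WT LF the count went from 3 to 2 with all 32 mice, with no low-count filter, with the replicate block and without the 6 mice, as the call of Map1lc3a was lost (adjusted p = 0.26, 0.122, 0.076 and 0.058). Leaving out a mouse gave 0 to 1 in both HF groups, 2 to 3 in WT LF and 4 to 6 in KO LF. The count of 1 for diet in fasted WT mice became 0 with all 32 mice, with lane as a term, with the replicate block and without the 6 mice, and the count of 2 in fasted KO mice became 1 with all 32 mice and without the 6 mice. With a mouse left out these were 0 to 2 and 0 to 3, the highest without KO LF fasted replicate 1 and replicate 3. The 32 other autophagy genes called for fasting became 21 with all 32 mice, 2 on lane 7 alone and 26 to 39 with a mouse left out. The share of all genes called in each alternative fit is not given here. A change in these counts is therefore not shown to be particular to these genes. Genotype stayed at 0 members in every fit, and no call changed direction. The causes were not tested.

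The replicate numbers did not pair the mice: over 98 pairs of mice with the same number in different groups, the median correlation of deviations was 0.006 and 2 were over 0.1. With the replicate block, fasting called the same 6 members, diet 1 and genotype 0, and among the members it changed only the calls of Map1lc3a in WT LF and of Bnip3 between diets in fasted WT mice. Depth limits Tfeb, which had 2 to 39 counts per mouse.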
